A study of Mus musculus with 2 samples.

Results

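The imprinted genes Nnat, Nap1l5, Mcts2, Zrsr1, Plagl1, Peg13, Impact, Grb10, Inpp5f and Rasgrf1 are 10 of the 49550 RefSeq genes on the autosomes and the X, taken by name as imprinted genes that stand alone or sit inside another gene rather than in a large imprinted cluster. DNA methylation was measured by whole-genome bisulfite sequencing in the epiblast, the layer of the early embryo that forms the fetus, of wild-type female (XX) C57Bl6/J mouse embryos at embryonic day 6.5 from natural matings, without embryo culture. The epiblast was dissected by hand and the sex was read by PCR from the extra-embryonic tissue. The labels list 2 samples of this 1 group. Their counts came in a single table that names no sample, read here as the pool, so values have no replicate error and no groups could be tested against each other. Of the 21353092 CpGs on the autosomes and the X, 89.2% had a read. The median depth was 6 reads per CpG, and 66.3% of the 137430444 read counts were methylated. A range after a level is its 95% interval (Clopper-Pearson, exact). The intervals describe counting error alone, and reads that span several CpGs make them too narrow. The strain is inbred and the counts carry no allele or cell of origin, so methylation of 1 allele in every cell and of both alleles in part of the cells cannot be told apart.

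An imprinted gene is expressed from the allele of only 1 parent. The choice is set by a stretch of CpG-rich DNA that is methylated in the egg or the sperm and keeps that methylation on the same allele after fertilization, through the wave that removes methylation from most of the genome. Zinc finger proteins such as ZFP57, which binds the methylated hexamer TGCCGC, together with TRIM28 and DNMT1 hold the mark in place. In mice the stretches at 9 of these genes are known as methylated on the maternal allele, and Rasgrf1, whose stretch lies before the gene, is methylated on the paternal allele. Several of the genes are copies made from processed RNA that landed in an intron of a host gene, as Mcts2, Nap1l5 and Zrsr1 are.

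The sequences around the start of 5 of the genes are shown with that of H13, host of Mcts2, because the start lies inside a partly methylated region in the first 5 and in an unmethylated one in H13. Each holds 250 bases before and 50 from the annotated start, 5′ to 3′ on the strand of the gene, from RefSeq (GRCm38.p6, the build of mm10), with every CpG in capitals.
Nnat: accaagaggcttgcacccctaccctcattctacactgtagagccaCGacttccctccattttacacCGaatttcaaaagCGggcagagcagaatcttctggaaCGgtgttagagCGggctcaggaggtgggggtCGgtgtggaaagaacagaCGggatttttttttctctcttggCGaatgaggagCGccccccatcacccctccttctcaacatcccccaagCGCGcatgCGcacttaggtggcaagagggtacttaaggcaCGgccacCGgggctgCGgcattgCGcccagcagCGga
Nap1l5: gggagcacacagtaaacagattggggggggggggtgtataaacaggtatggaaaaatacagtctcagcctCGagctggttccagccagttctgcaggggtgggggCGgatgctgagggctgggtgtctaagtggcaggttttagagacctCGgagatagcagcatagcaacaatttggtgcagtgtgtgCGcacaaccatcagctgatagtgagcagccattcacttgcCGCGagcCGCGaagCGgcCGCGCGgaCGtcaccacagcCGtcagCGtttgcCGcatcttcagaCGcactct
Mcts2: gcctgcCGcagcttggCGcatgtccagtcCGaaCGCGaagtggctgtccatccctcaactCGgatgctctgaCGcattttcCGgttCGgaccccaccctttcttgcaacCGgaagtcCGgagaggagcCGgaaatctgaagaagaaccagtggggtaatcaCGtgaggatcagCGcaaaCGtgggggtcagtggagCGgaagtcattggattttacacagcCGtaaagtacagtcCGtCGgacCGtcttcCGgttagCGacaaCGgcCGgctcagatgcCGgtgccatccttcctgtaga
Zrsr1: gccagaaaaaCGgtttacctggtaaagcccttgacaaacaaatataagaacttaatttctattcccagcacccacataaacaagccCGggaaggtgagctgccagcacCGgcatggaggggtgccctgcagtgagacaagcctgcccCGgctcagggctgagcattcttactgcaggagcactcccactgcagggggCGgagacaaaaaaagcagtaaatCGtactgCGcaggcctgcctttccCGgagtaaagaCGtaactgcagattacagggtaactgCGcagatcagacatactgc
Plagl1: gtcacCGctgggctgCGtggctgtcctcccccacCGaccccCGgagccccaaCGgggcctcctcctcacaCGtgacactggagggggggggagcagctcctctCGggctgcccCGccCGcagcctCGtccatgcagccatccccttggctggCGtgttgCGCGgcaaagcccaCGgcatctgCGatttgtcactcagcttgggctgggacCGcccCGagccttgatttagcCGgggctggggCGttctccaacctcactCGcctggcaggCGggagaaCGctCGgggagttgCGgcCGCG
H13: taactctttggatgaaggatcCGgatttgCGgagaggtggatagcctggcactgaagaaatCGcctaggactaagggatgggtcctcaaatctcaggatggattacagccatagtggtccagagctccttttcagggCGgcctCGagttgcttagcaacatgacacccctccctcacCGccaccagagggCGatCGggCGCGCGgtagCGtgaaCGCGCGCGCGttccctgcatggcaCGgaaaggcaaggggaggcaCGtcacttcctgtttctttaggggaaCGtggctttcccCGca
They lie at chr2:157559828-157560127 (plus strand), chr6:58907077-58907376 (minus strand), chr2:152686898-152687197 (plus), chr11:22971755-22972054 (plus), chr10:13090582-13090881 (plus) and chr2:152669211-152669510 (plus). All CpG positions in these sequences were the ones in the deposited table.

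Within these 300 bases the H13 start was nearly free of methylation and the starts inside partly methylated DNA were not. H13 was at 4.76% (2.63% to 7.86%; 21 CpGs, 294 read counts). Mcts2 was at 26.6% (20.2% to 33.8%; 25 CpGs, 173 read counts), and Nap1l5 at 35.7% (27.8% to 44.2%; 17 CpGs, 140 read counts). Nnat was at 41.7% (34.6% to 49.0%; 17 CpGs, 192 read counts), and Plagl1 at 48.9% (42.1% to 55.6%; 26 CpGs, 223 read counts). Zrsr1, with only 10 CpGs there, was highest at 61.7% (51.1% to 71.5%; 94 read counts). The hexamer TGCCGC, or GCGGCA on the other strand, was found in the Nap1l5 sequence at 2 places and once each in those of Nnat, Mcts2 and Plagl1. None was found in the 300 bases of Zrsr1 or H13. It was also present at the low first start of Grb10 and at that of Commd1, host of Zrsr1. Of all 32851 RefSeq promoters of this length 11.6% hold it, and of the 11378 with at least 15 CpGs 25.1% do.

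CpG-dense regions were defined from sequence alone, as 500 bp windows with at least 20 CpGs, placed every 100 bp and merged where they met. A region is called low when its interval lies under 20%, intermediate when it lies within 20% to 60%, high when it lies over 60%, and otherwise unresolved. In the 10 genes and the 2 kb around them there were 18 such regions, of which 10 were intermediate, 4 low, 3 high and 1 unresolved. Among 40616 measured autosomal regions, 7.39% were intermediate, 36.9% low and 41.5% high. An intermediate region was present at 9 of the 10 genes, and Rasgrf1 had none. The 10 intermediate regions lay between 22.9% and 50%, with a median of 41.4%, and the upper bound was under 50% in 8 of them. With intermediate taken as 30% to 70%, only 5 genes kept such a region, while 3457 of the 40616 autosomal regions were intermediate. The 5 were Nnat, Nap1l5, Plagl1, Peg13 and Inpp5f. Mcts2, Zrsr1, Impact and Grb10 dropped out because their intervals reach under 30%.

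**Figure D1:**
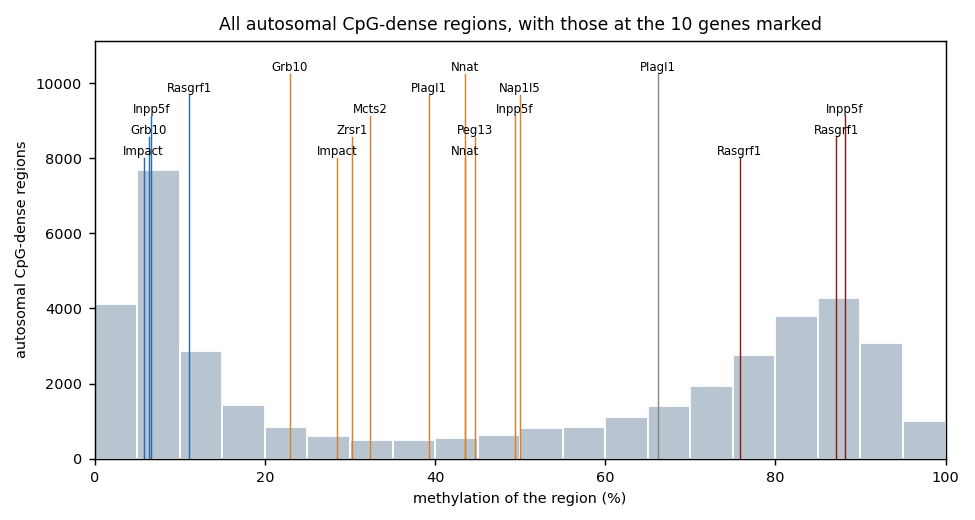
Number of autosomal CpG-dense regions (vertical axis) by methylation in percent (horizontal axis, 5-point bins), with a line for each of the 18 regions at the 10 genes, colored by call (blue low, orange intermediate, gray unresolved, dark red high). The 10 intermediate lines, from 22.9% to 50%, stand in the sparse middle of a distribution with peaks near both ends.

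Nnat, Nap1l5, Mcts2, Zrsr1 and Peg13 lie inside a host gene. At each of them the region of the inner gene was partly methylated, while the CpG-dense region nearest the start of the host was low. Nnat encodes neuronatin, a small membrane protein of neurons, and lies within Blcap, a gene of the opposite strand. Its start region (chromosome 2, 157559300 to 157560899, 86 CpGs) was at 43.5% (40.2% to 46.9%), and a smaller region inside the gene (157561200 to 157561999, 33 CpGs) was also at 43.5% (38.7% to 48.4%). The Blcap start region (157565500 to 157566899) was at 8.55% (6.85% to 10.5%), which is 35.0 points lower. Nnat is partly methylated along most of its length, with 44.7% (41.7% to 47.8%) over the whole 2448 bp gene.

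Nap1l5 is an intronless relative of nucleosome assembly proteins within Herc3, a ubiquitin ligase gene. The region at its start (chromosome 6, 58906400 to 58907599, 63 CpGs) had 255 methylated of 510 read counts, 50% (45.6% to 54.4%), the highest among the intermediate regions. Herc3 gave opposite answers at its 2 candidate starts. The annotated start used by the promoter rule has only 10 CpGs within 500 bp on either side and was at 93.3% (83.8% to 98.2%), whereas the CpG-dense region over the lower-coordinate end of the gene (58831000 to 58832299, 91 CpGs) was at 2.82% (1.86% to 4.07%). The Nap1l5 region minus Herc3 was thus -43.3 points with the first and 47.2 points with the second.

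Mcts2 is a copy of Mcts1, a factor of translation restart, within H13, which encodes signal peptide peptidase. The region over Mcts2 (chromosome 2, 152686400 to 152687699, 71 CpGs) was at 32.4% (28.6% to 36.3%), and that over the H13 start (152669000 to 152670199, 76 CpGs) was at 5.03% (3.80% to 6.51%). Along H13 the level thus went from low at the start to partly methylated at Mcts2, over a gene body that was at 81.4% (80.3% to 82.5%) outside CpG-dense regions.

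Zrsr1 is a copy of the splicing factor gene Zrsr2 within Commd1, a gene of copper handling. Its region (chromosome 11, 22971700 to 22973799, 115 CpGs) was at 30.2% (27.7% to 32.9%), and that at the first Commd1 start (22981600 to 22982699, 53 CpGs) was at 9.09% (6.96% to 11.6%). The table of starts lists a second Commd1 start, 9418 bp inside the gene, that falls in the Zrsr1 region and had 24.8% (21.8% to 27.9%) within 500 bp on either side. The Zrsr1 region was uneven. Sliding 500 bp windows went from 18.7% (14.7% to 23.2%) near its center to 44.5% (35.4% to 53.9%) at its edge toward the end of the gene. At its other edge, the 300 bases around the start were higher, at 61.7% (51.1% to 71.5%).

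Peg13 is a noncoding RNA gene within Trappc9, which encodes a subunit of a vesicle tethering complex. The region over its higher-coordinate end (chromosome 15, 72809100 to 72810799, 85 CpGs) was at 44.7% (41.2% to 48.2%), and the gene body outside it was at 80.1% (76.2% to 83.7%). At Trappc9 the CpG-dense end (73060300 to 73061499, 53 CpGs) was at 3.09% (1.87% to 4.79%), 41.6 points lower.

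**Figure D2:**
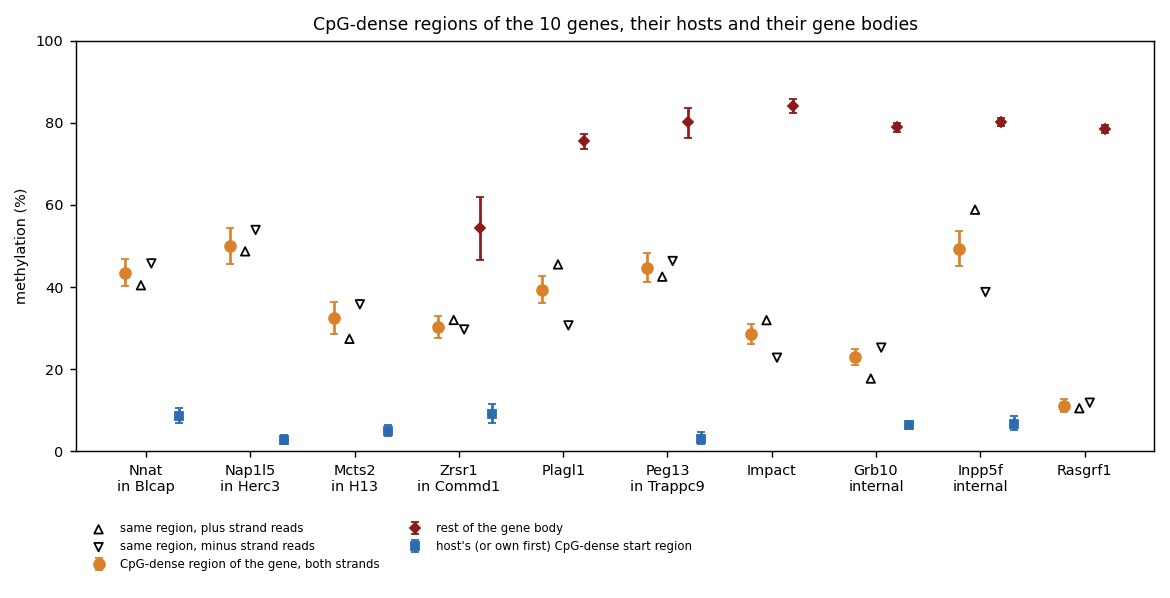
Methylation in percent (vertical axis) of the CpG-dense region of each of the 10 genes (orange circles), of the same region from the reads of each strand (triangles), of the CpG-dense start region of the host or, for Grb10 and Inpp5f, of the gene itself (blue squares), and of the gene body outside CpG-dense regions (dark red diamonds), with 95% intervals. Every blue square lies under 10% and, but for Rasgrf1, every orange circle lies between 22.9% and 50%.

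The promoter window spans 500 bp to each side of the annotated start, or of the gene end richer in CpGs where no start is listed. Of the 7 windows at the 5 hosts and at the first starts of Grb10 and Inpp5f, 6 were low, beside 64.7% of 18358 autosomal protein-coding promoters. The exception was Herc3. The median difference between the inner region and this window was 27.1 points over 7 pairs, and 35.0 points with the CpG-dense regions nearest the start. That comparison was added once the Herc3 value had been seen. All 7 of its regions were low, beside 36.9% of all autosomal CpG-dense regions. The share among CpG-dense regions at gene starts alone was not measured, so this count is not particular to the hosts. By the same windows the genes themselves split into 6 that were intermediate, beside 4.66% of autosomal protein-coding promoters, and 4 that were not. The intermediate ones were Mcts2 (31.7%), Zrsr1 (36.7%), Plagl1 (37.1%), Nnat (42.6%), Peg13 (42.7%) and Nap1l5 (50.2%). Inpp5f (5.21%), Grb10 (5.47%) and Rasgrf1 (9.85%) were low. The window of Impact, at its higher-coordinate end with 6 CpGs and no start listed there, was at 79.6%. This end may not be the start of Impact, and the window covers neither of the gene's CpG-dense regions.

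Plagl1, a zinc finger factor that slows growth, and Impact, a regulator of translation under stress, have no host, and both carried a partly methylated region. The Plagl1 region covers its start (chromosome 10, 13090200 to 13091999, 106 CpGs) and was at 39.3% (36.0% to 42.6%). Sliding windows went from 31.4% (26.9% to 36.1%), near the center, to 55.8% (44.7% to 66.5%). A second region of 20 CpGs toward the other end of the gene, 36617 bp from the start, was at 66.2% (59.2% to 72.6%) and unresolved. The body outside both was at 75.5% (73.7% to 77.2%).

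Impact had a low region and a partly methylated one. A region of 21 CpGs (chromosome 18, 12955500 to 12955999) that begins 810 bp from its lower-coordinate end was at 5.76% (3.33% to 9.18%). The larger region, 133 CpGs (12972700 to 12974799), begins 18010 bp from the same end and was at 28.5% (26.1% to 31.0%), with sliding windows from 22.6% (18.5% to 27.2%) to 36.1% (28.6% to 44.2%). Around them the Impact body was at 84.1% (82.5% to 85.7%), the highest of the 7 genes long enough to be measured.

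Grb10 and Inpp5f are long genes with an unmethylated first promoter and a second, partly methylated CpG-dense region inside. Grb10 encodes an adaptor that dampens insulin receptor signaling, and is unusual among imprinted genes in that different promoters are used from the maternal and paternal alleles in different tissues. Its first promoter region (chromosome 11, 12036200 to 12038299, 225 CpGs) was at 6.35% (5.38% to 7.43%). The inner region (12025200 to 12026999, 159 CpGs), centered 11321 bp after the start, was at 22.9% (20.9% to 25%), the lowest of the intermediate ones and close to the limit of 20%. Inside it the level was not even. A 500 bp window of 67 CpGs was at 11.4% (8.95% to 14.2%), whereas neighboring windows of up to 54 CpGs formed an 800 bp run from 23.4% to 28.6%. The window of highest level wholly inside the region was at 37.6% (31.5% to 43.9%). The second annotated Grb10 start, 9449 bp after the first and upstream of the inner region, has 11 CpGs and was at 58.3% (46.1% to 69.8%).

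Inpp5f encodes a phosphatase of membrane lipids, and a shorter transcript known to be imprinted starts in one of its introns. The first promoter region (chromosome 7, 128610900 to 128612299, 88 CpGs) was at 6.65% (5.09% to 8.51%). The inner region, toward the other end (128687400 to 128688899, 83 CpGs), was at 49.4% (45.1% to 53.6%), with its center 76784 bp from the start. Its middle was lower than its edges, with 33.9% (28.5% to 39.7%) in the lowest window and 67.3% (57.4% to 76.2%) in the highest. A further region before the start was at 88.1% (77.1% to 95.1%), on only 59 read counts. Of its 37 CpGs, 17 had a read.

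**Figure D3:**
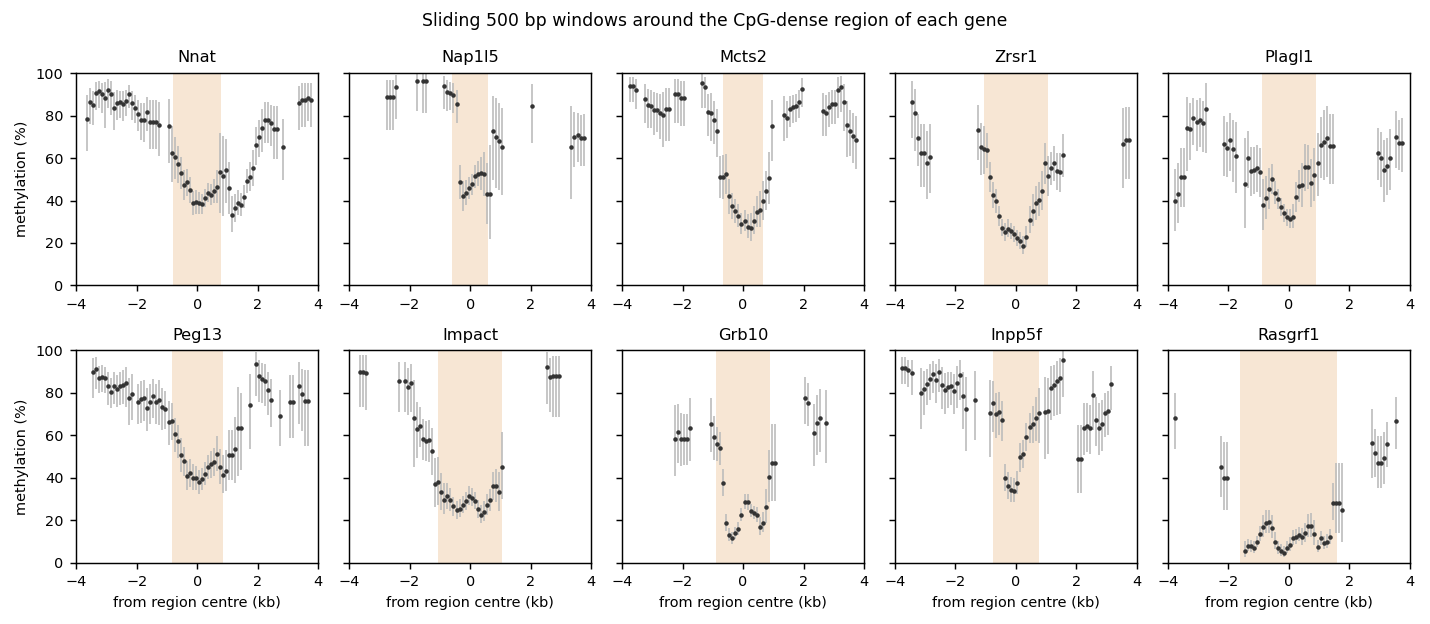
Methylation in percent (vertical axes) in 500 bp windows every 100 bp by distance in kb from the center of the CpG-dense region (shaded) of each gene, in the direction of transcription where the strand is listed, with 95% intervals as gray bars. Windows with too few reads are left out. In every panel some windows outside the shading exceed 60% on both sides. Windows wholly inside lie from 11.4% to 67.3% in the first 9 genes and from 4.6% to 19% in Rasgrf1.

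Rasgrf1, an exchange factor that activates Ras in neurons, had no intermediate CpG-dense region within its bounds. Its start region, the longest here (chromosome 9, 89908300 to 89911499, 191 CpGs), was at 11.1% (9.66% to 12.6%). Both regions further inside the gene were high, at 87.1% (82.3% to 91.0%) and 75.8% (71.1% to 80.2%), with the body at 78.4% (77.5% to 79.4%). Since its imprinted stretch is known to lie before the gene, the DNA from 20 to 40 kb before the start was read in 40 windows of 500 bp, of which 21 were measured. Of these 16 were unresolved, 3 high and 2 intermediate, beside a background of 2.40% intermediate among measured autosomal windows. The 2 intermediate windows lay close together. The window from 29.5 to 30 kb before the start (21 CpGs) was at 40.5% (32.8% to 48.6%), and that from 31 to 31.5 kb (13 CpGs) was at 43.0% (33.1% to 53.3%). Between them the window from 30 to 30.5 kb (19 CpGs) was at 14.2% (9.0% to 20.9%). Unresolved windows further out on both sides also had middle levels with wide intervals. Examples are 47.9% (33.3% to 62.8%) from 23.5 to 24 kb and 55.9% (37.9% to 72.8%) from 32 to 32.5 kb. A high window at 77.5% lay from 28.5 to 29 kb. The calls therefore do not show how far the partly methylated DNA extends. The 6 windows with at least 10 CpGs came to 39.6% (35.6% to 43.7%) together, and the other 34 to 59.8% (56.5% to 63.0%). CpGs are sparse here. Of the 19 windows that were not measured, 16 hold fewer than the minimum of 5 CpGs, and the other 3 had too few reads.

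**Figure D4:**
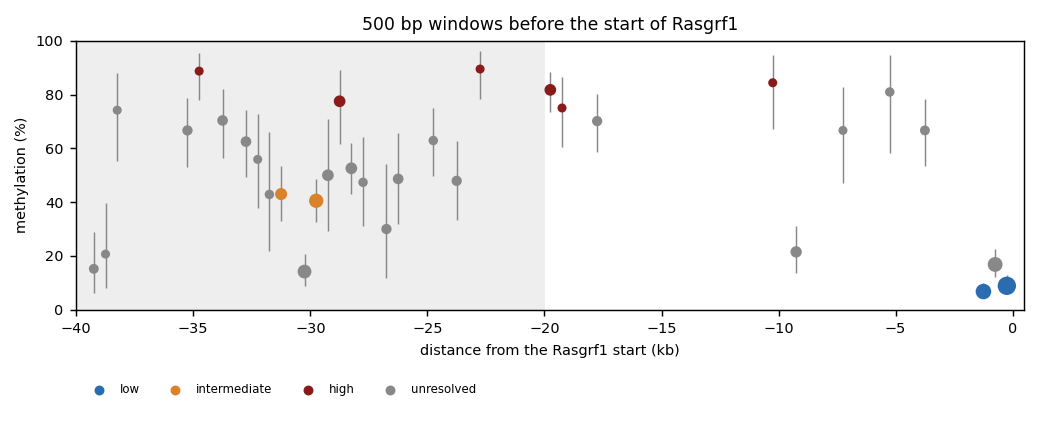
Methylation in percent (vertical axis) of measured 500 bp windows by distance in kb before the Rasgrf1 start (horizontal axis), with 95% intervals, dot area growing with the number of CpGs and color giving the call. The gray band marks 20 to 40 kb, in which the CpG-richer windows near 30 kb lie from 14.2% to 52.6% but for 1 at 77.5%, while the start itself is low.

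The windows at both ends of the genes show where the partly methylated DNA stops. Of 160 windows of 500 bp from 2 kb before to 2 kb after each end, 105 were measured. Of these 27 (25.7%) were intermediate, 40 high, 10 low and 28 unresolved. The share over all measured autosomal windows, at a gene end or not, was 2.40%. Windows of the short genes Nnat, Nap1l5 and Mcts2 overlap between the ends and are counted at each. Around the Mcts2 start the level went from 81.8% in the window 1500 to 1000 bp before it, through 51.0%, to 32.6% and 30.5% on either side of the start, and back to 80.3% from 1000 bp after it. At Nnat it went from 77.2% to 63.3%, 44.8% and 41.5% over the same approach, and it was at 74.0% in the last 500 bp of the gene. At Nap1l5 it went from 93.9% in the window 1000 to 500 bp before the start to 54.3% in the next and 48.9% after the start. Grb10, Inpp5f and Rasgrf1 each had low windows at the start and at least 1 intermediate window within 2 kb of it. At Inpp5f the intermediate windows were at 46.7% in the 500 bp before the start and 39.1% from 1000 bp after it, around windows at 3.65% and 6.83%. The far ends of Grb10, Inpp5f and Rasgrf1 and the higher-coordinate end of Impact held no intermediate window, and their measured windows were at 75% or more.

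**Figure D5:**
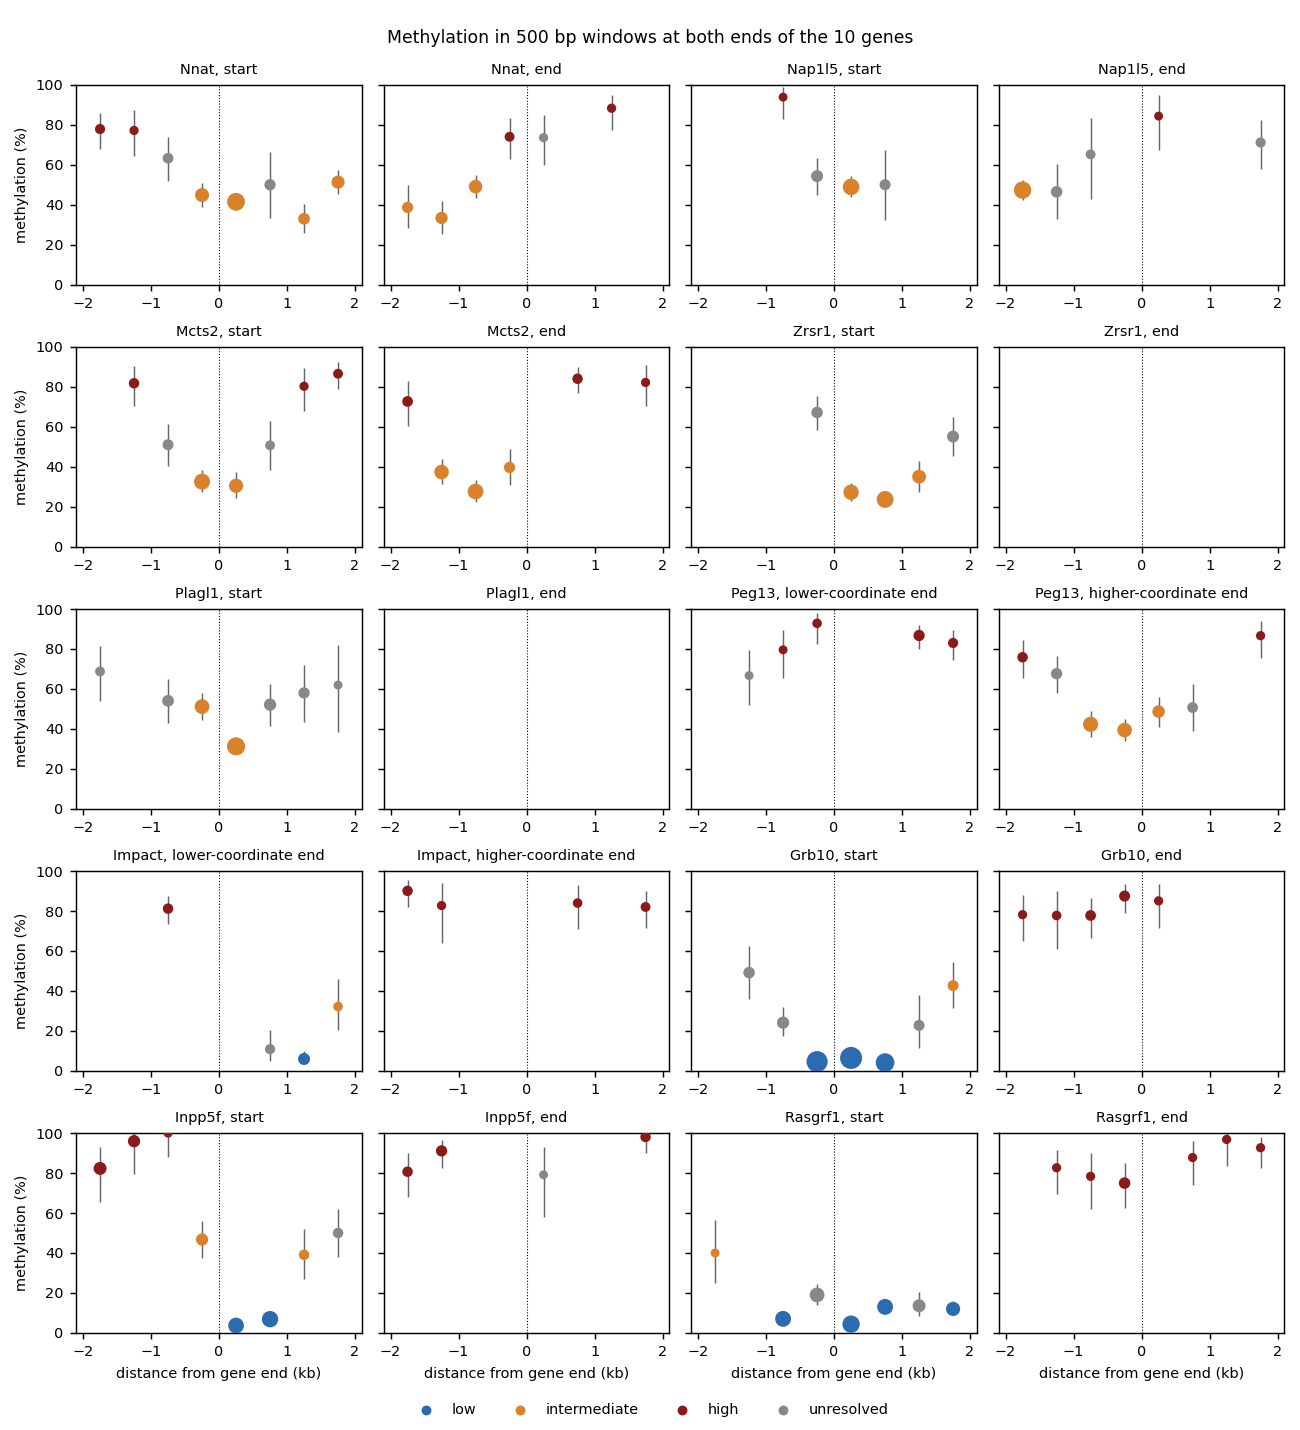
Methylation in percent (vertical axes) in measured 500 bp windows from 2 kb before to 2 kb after each end of the 10 genes (horizontal axes, kb, in the direction of transcription where the strand is listed), with 95% intervals, dot area growing with CpG number and color giving the call. Intermediate windows gather at the starts of Nnat, Nap1l5, Mcts2, Zrsr1 and Plagl1 and at the higher-coordinate end of Peg13, whereas the first window after the start is low at Grb10, Inpp5f and Rasgrf1. No window was measured at the far ends of Zrsr1 and Plagl1.

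The stretch of consecutive sliding windows that were all intermediate differed in length among the genes. It spanned 1100 bp at Nap1l5 and in the inner region of Inpp5f, 1300 bp at Zrsr1, 1600 bp at Nnat, 1700 bp at Mcts2, 1800 bp at Plagl1, 1900 bp at Impact and 2000 bp at Peg13. At Grb10 it was 800 bp. For Nnat this is the stretch over the start, and another of 1200 bp lay over its smaller region. Windows centered between these stretches were at 51.7% to 54.3% and unresolved, on 29 to 46 read counts. The length of a stretch thus depends on read depth as well as on level. All these stretches were picked by their level and are given as a description.

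Single CpGs gave a further view of the regions. Among the CpGs with at least 10 read counts in the 10 intermediate regions, 80.1% of 453 had a level from 20% to 80%, 19% were under 20% and 0.883% were over 80%. In the low autosomal regions 7.56% of such CpGs lay from 20% to 80%, in the high ones 40%, and in the 2845 other intermediate ones with such a CpG 72.4%. The regions were called from the same reads, so the contrast with low and high regions largely follows from the calls. In the Nnat start region all 50 CpGs of this depth were from 20% to 80%, with values from 23.1% to 60%, and so were all 37 in the Peg13 region. In Grb10, by contrast, 45 of 83 were in that range and 37 were under it.

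The table keeps the plus and minus strand apart, which gives separate readings of each region from the same pool. The strands differ in depth, as at Zrsr1 with 294 and 927 read counts, and their difference is not replicate error. Over the 10 intermediate regions the strands differed by 2.31 to 20.1 points, with a median of 7.65 points, while the counting interval reached a median of 3.43 points to each side. The plus strand was higher in 4 regions and the minus strand in 6. At 4 genes the intervals of the strands did not overlap. Inpp5f had 58.8% on the plus and 38.8% on the minus strand, Plagl1 had 45.5% and 30.7%, Impact had 31.9% and 22.8%, and Grb10 had 17.7% and 25.2%. The order of these genes among themselves is not resolved where their levels differ by less than the strands do. The step from the inner regions to the host start regions was larger than the strand difference at Nnat, Nap1l5, Mcts2, Zrsr1, Peg13, Inpp5f and Grb10.

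Gene bodies were mostly high. The 7 genes long enough to be measured outside CpG-dense regions had a median of 78.9%, beside a median of 78.2% (interquartile range 72.4% to 83.4%) over 17402 autosomal protein-coding genes. Zrsr1 was the lowest at 54.4% (46.6% to 62.0%), over 17 CpGs, and lay below that range.

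Relatives of these genes that are not among the imprinted genes here mostly had low promoters. Of 10 on the autosomes, 9 were low and 1 unresolved, with a median of 4.62%, beside 64.7% low and a median of 8.29% over all autosomal protein-coding promoters. Sacm1l, a phosphatase gene related to Inpp5f, was at 2.21%, and Plagl2, a sister of Plagl1, at 2.90%. Nap1l4 was highest, at 26.3% (unresolved) with 9 CpGs in its window. Among 4 relatives on the X, where 1 copy is silenced in female cells, 3 were low and Nap1l2 was unresolved at 20.5%. Of these Mcts1, the parent gene of Mcts2, was at 8.88%, and Zrsr2, that of Zrsr1, at 7.65%, both named for that relation.

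Neighbors within 500 kb were low in 15 of 22, intermediate in 1, high in 1 and unresolved in 5, with a median of 9.99%. The share that was low, 68.2%, was near the 64.7% of all autosomal protein-coding promoters, whose median was 8.29% and of which 4.66% were intermediate. The lowest were Osbpl1a next to Impact (1.32%) and Cobl near Grb10 (2.40%), and the highest were the histamine receptor gene Hrh4 next to Impact (78.6%, 10 CpGs) and Ddc next to Grb10 (69.4%, 12 CpGs), an enzyme gene of dopamine synthesis. The intermediate neighbor was Cox4i2, 65.97 kb from Mcts2, at 34.1%, a gene singled out after its value was seen.

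Promoter windows of other imprinted loci known for methylation on the maternal allele were mostly intermediate too. The windows lie at the most upstream listed start, or at a gene end, and need not cover the stretch methylated on that allele. At Mest and Snrpn the listed start falls in no CpG-dense region. The counts do not show which region of a locus, as at Gnas with several, carries the maternal mark. Of 8 promoter windows 7 were intermediate, beside 4.66% of all, and the median was 36.9%. The windows of Peg10 and Sgce overlap for most of their length, so they are not separate readings though both are counted. Gnas (28.9%) and the hydrolase gene Mest (29.2%) were lowest, and Peg3 (40.2%) and Snrpn (55%, unresolved on 20 read counts) highest. CpG-dense regions over the start were at 29.5% (27.4% to 31.6%) for Gnas, 36.0% (33.3% to 38.7%) for Peg10 and Sgce, which share the region, 38.4% (35.4% to 41.4%) for Kcnq1ot1, 38.7% (35.7% to 41.8%) for Peg3 and 39.9% (36.8% to 43.1%) for Airn. The other regions of these loci, which do not hold the listed start, ranged from low to high. The intermediate ones among them were at 38.6% and 39.3% for Gnas, 42.4% and 43.6% for Mest, and 36.5%, 41.8%, 48.6% and 52.9% for Snrpn.

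Genes whose products set or keep imprints were low at their own promoters in a share near that of other genes. Of 10 measured on a list of 11, 7 were low, 1 intermediate and 2 high, with a median of 7.93%, beside 64.7% low, 4.66% intermediate and a median of 8.29% over all autosomal protein-coding promoters. The heterochromatin protein gene Cbx5 was at 2.20% and the methyltransferase gene Dnmt3a at 2.37%. Zfp57 had the highest level, 79.4% over 11 CpGs, followed by Dnmt3l, whose product has no methyltransferase activity of its own and stimulates DNMT3A in the egg, at 71.4% over 15 CpGs. Dppa3, which protects the maternal genome from demethylation, was the intermediate one at 30.6%, named after its value was seen.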

How the data were processed

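The deposited values are counts of methylated and unmethylated reads for each strand of each CpG, in 1 table of 43816016 lines with 137691322 read counts. Libraries followed a published bisulfite protocol, per the labels. Per the submitters' processing notes, reads were handled with cutadapt (1.3), Bismark (0.12.5) and Bowtie2 (2.1.0), and the genome was mm10. How the 2 samples were combined, and whether duplicate reads were removed, is not given in the sources used here. Uncollapsed duplicates would make the intervals too narrow.

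Both strands were added, and methylated counts were divided by all counts of a region. A region was measured with at least 5 CpGs with a read and 20 read counts. Gene ends came from RefSeq genes of GRCm38.p6 without exons, so exon or intron is not stated, and starts from the RefSeq promoter table, the most upstream one counting. It lists starts for 8 of the 10 genes. Peg13, Impact, Trappc9 and some list genes were given the end with more CpGs. The region nearest that point was taken as the gene's region, except at Grb10 and Inpp5f, where it was the nearest one inside the gene because the known imprinted stretch is internal. The body of a gene omits CpG-dense regions and the 1000 bp next to either end. Of 57 list entries, Pigy matched no gene, Ptp4a1 lies on a chromosome without any of the 10 genes, and Dnmt1 had too few CpGs. All members and hosts were named, and the 2 highest and 2 lowest of each list. Members and lists were chosen with earlier results of these data known. Scripts (Python 3.11.15, numpy 2.4.6, pandas 2.3.3, scipy 1.17.1) were tested on simulated data. Alternatives varied strand, depth limits, CpG density, window sizes and thresholds.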

Additional observations from a re-analysis of the deposited data

How the results depend on the processing

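No paired analysis was possible because the table holds 1 group as a pool, and for the same reason no replicate could be left out. An intermediate region was found at 9 genes in the main analysis, at 5 with limits of 30% and 70%, and at 6 to 9 in the others. The median difference between inner region and host promoter, 27.1 points, was 22.1 points with plus strand reads alone and 35.0 points with the host's CpG-dense region, which also turned the difference for Nap1l5 from -43.3 to 47.2 points. The median level of the CpG-richest end windows, 27.4%, was 19.9% with minus strand reads alone. The cause of these shifts by strand was not tested. Of the autosomal regions, 3003 of 40616 were intermediate, compared with 1685 of 34516 with 1 CpG per 100 bp, 6881 of 96039 with 15 CpGs per 500 bp and 1555 of 25040 with 25. With limits of 30% and 70%, 3457 of the 40616 were. Among 80 values for the regions of single genes, under the alternatives that can change a level, 19 moved beyond their counting interval. Sparse CpGs and reads left 55 of the 160 windows at the gene ends unmeasured, and the region before Inpp5f rests on 59 read counts.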

Other observations

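Outside CpG-dense regions, the DNA from 2 to 10 kb beyond the gene ends was high at most of the genes but not at all. It was at 50.1% (46.0% to 54.2%; 93 CpGs) below the lower-coordinate end of Impact, at 54.5% (49.4% to 59.5%; 60 CpGs) before Rasgrf1 and at 54.7% (50% to 59.3%; 61 CpGs) above the higher-coordinate end of Nnat, which lies around the Blcap start. At Nap1l5, by contrast, both flanks were near 90%, with 92.1% (88.9% to 94.5%) and 89.2% (85.3% to 92.3%).

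The H13 gene held a further low region near its higher-coordinate end (chromosome 2, 152707300 to 152708299, 49 CpGs) at 8.15% (6.13% to 10.6%), beyond Mcts2. Between Mcts2 and that region lay 2 high ones, at 87.0% and 75%. H13 therefore carried low, partly methylated and high CpG-dense regions in 1 gene. Trappc9 also had 2 high regions, at 84.3% and 77.7%, besides the Peg13 region and its own low end.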
